A study of Mus musculus with 2 samples.

Results

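Excitation-contraction coupling is the step that turns a change in membrane voltage into a rise of calcium inside a muscle fibre. The report is about 10 genes of this machinery, Ryr1, Cacna1s, Cacnb1, Cacng1, Trdn, Casq2, Atp2a1, Sln, Stac3 and Jph2, which were taken by symbol from the 27998 genes of the count table. The choice rests on no threshold on a measured value, but it was made with earlier results of these data known. All 10 had transcripts in the kept cells of both stages. They were measured by single-cell RNA sequencing of dissociated somites from between the limb buds of wild-type C57BL/6 mouse embryos, with 3 embryos pooled into 1 library at E9.5 and 3 pooled into 1 library at E11.5. The labels name no transgene and no treatment at either stage. Since a stage is a single library, no difference was tested across replicates. The intervals of levels, ratios and shares of cells are exact 95% intervals that cover counting error only (Poisson for levels, Clopper-Pearson for shares). The ranges given for onset are built otherwise and are described with the onsets.

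In a skeletal muscle fibre, the membrane folds inward as tubules that touch the calcium store, the sarcoplasmic reticulum. A voltage sensor in the tubule membrane, the dihydropyridine receptor, pulls on a release channel in the membrane of the store, calcium flows out and the sarcomeres contract. A pump then returns calcium to the store, where a binding protein holds it. The question taken up is in which muscle cells, and in what order, the genes of this machinery were found.

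The E9.5 library held 10121 barcodes and 149368952 unique molecular identifiers (UMIs, random tags by which PCR copies of a molecule are counted once), and the E11.5 library 10167 barcodes and 136655763 UMIs. Cells with at least 200 and under 6500 genes and under 15% mitochondrial UMIs were kept, which left 9851 and 9595 cells with medians of 12462 and 12479 UMIs. The libraries shared 30 barcode sequences. Levels are the UMIs of a gene summed over a class of cells, per 1000000 UMIs of that class (UPM). Muscle cells were gated on Myod1, Myog and Acta1, none of which is among the 10 genes. Myod1 and Myog are transcription factors of muscle commitment and differentiation, and Acta1 is the actin of the skeletal sarcomere.

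At E11.5, 103 cells formed the Acta1-high class (at least 50 Acta1 UMIs and at least 1 UMI of Myod1 or Myog), 116 cells the Acta1-low class (5 to 49 Acta1 UMIs), 361 cells the Myog class (at least 3 Myog UMIs, under 5 Acta1 UMIs) and 198 cells the Myod1 class (at least 2 Myod1 and at most 1 Myog UMI). A further 370 cells without Myod1 or Myog UMIs but with at least 2 UMIs of Pax3, Pax7 and Myf5 together formed the progenitor class. At E9.5 the same gates gave 3, 6, 26, 0 and 1021 cells. Actc1, Mylpf, Ttn and Tnnt1, which encode sarcomere proteins and were not used for gating, were found in at least 98.1% of the Acta1-high cells. Because Casq2 and Jph2 are best known from heart, 9 heart genes were checked in the same cells. In the Acta1-high class 6 of the 9 were found, Nppa, Nkx2-5 and Hand2 had 0 UMIs, and the list summed to 6497 UPM, of which Myl4 gave 5014 and Tnnt2 1441. The rest came from Myl7, Myh6, Tnni3 and Gata4, which were found as well. In the Acta1-low class the list summed to 2973 UPM, in the Myog class to 257 and in mesenchyme to 18.4, with Nppa and Nkx2-5 at 0 in each. Myl4 and Tnnt2 are also made by embryonic skeletal muscle. A list of 4 smooth muscle genes was also higher in the later classes, with 156 UPM in Myod1, 1197 in Myog, 3727 in Acta1-low and 6744 in Acta1-high cells, against 55.8 in mesenchyme. Acta2 and Tagln, which embryonic skeletal muscle makes too, gave 5290 and 1449 UPM of it in Acta1-high cells, where all 4 were found. The other 2 were low there, with 2 UMIs of Myh11, the myosin of smooth muscle, and 10 of Cnn1, and Myh11 had 0 UMIs in Myog and Acta1-low cells.

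Promoter sequences from RefSeq on GRCm38.p6 were at hand for 6 of the 10 genes, Ryr1, Cacna1s, Cacnb1, Casq2, Atp2a1 and Jph2, as 300-base windows from 250 bases before to 50 bases after a start site. The 4 chosen here belong to a pair of genes already well counted in Myog cells (Atp2a1, Ryr1) and a pair counted mostly in cells with Acta1 (Cacna1s, Casq2). They are written 5′ to 3′ on the strand of the gene, and capitals mark the motif CAGCTG, an E-box of the kind that MyoD family factors bind.
Atp2a1, chr7:126463024-126463323, minus strand: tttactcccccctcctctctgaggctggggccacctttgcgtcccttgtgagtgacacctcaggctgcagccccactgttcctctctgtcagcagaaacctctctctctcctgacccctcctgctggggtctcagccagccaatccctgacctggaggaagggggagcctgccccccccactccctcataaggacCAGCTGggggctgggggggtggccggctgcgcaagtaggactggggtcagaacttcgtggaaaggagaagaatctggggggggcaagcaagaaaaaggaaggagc
Ryr1, chr7:29125102-29125401, minus strand: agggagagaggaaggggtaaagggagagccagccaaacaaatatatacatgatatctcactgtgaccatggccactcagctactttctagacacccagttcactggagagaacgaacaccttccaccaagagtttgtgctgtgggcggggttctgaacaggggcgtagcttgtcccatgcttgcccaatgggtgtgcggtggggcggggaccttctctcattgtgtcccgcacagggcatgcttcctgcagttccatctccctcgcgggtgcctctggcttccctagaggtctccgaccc
Cacna1s, chr1:136052561-136052860, plus strand: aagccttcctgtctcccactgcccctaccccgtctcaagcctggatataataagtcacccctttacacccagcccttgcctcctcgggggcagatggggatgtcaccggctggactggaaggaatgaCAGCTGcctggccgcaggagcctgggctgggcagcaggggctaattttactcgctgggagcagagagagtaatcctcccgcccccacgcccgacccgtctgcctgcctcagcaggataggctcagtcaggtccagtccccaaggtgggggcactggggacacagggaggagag
Casq2, chr3:102086165-102086464, plus strand: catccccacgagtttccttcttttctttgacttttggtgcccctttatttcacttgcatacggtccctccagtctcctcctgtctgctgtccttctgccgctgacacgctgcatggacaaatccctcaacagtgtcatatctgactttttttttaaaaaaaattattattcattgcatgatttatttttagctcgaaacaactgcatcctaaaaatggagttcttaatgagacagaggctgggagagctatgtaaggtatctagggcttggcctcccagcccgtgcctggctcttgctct

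CAGCTG, which reads the same on both strands, was found once in the Atp2a1 window, starting 55 bases before the start site, and once in that of Cacna1s, 123 bases before it. It was also present in both windows of Jph2, 9 and 29 bases before their start sites, which overlap and share this site, and absent from those of Ryr1, Casq2 and Cacnb1. Of all 32851 promoter windows, 16.3% held it. The related E-box CACCTG, searched also as CAGGTG, was in none of the 8 windows of the 6 genes and in 20.2% of all windows. For motifs of the MEF2 type, only the pattern of CTA and TAG with 4 bases between them was searched. It was in none of the 8 and in 3.69% of all. The Casq2 window holds TTATTTTTAG, which differs from this pattern in its first base. Such looser forms were not counted, here or over all windows. Of the 4 windows printed, CAGCTG was thus in 1 of each pair. A match of letters is a description and not a binding site.

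All 10 genes were higher in Acta1-high than in Myog cells at E11.5. The median log2 ratio over the 10 was 3.78, against -0.19 over the 10974 genes with at least 20 UMIs in both classes together. Of the 10, 9 were at least 4-fold higher (5.05% of all genes tested were) and all 10 at least 2-fold higher (12.1% of all genes). None was at least 2-fold lower, as were 16.8% of all genes. Cacna1s and Trdn, with 4 and 2 UMIs in Myog cells, reached 20 UMIs only through the class in which they were higher. Ratios ranged from 3.49-fold (95% interval 3.12 to 3.90) for Atp2a1 to 647-fold (178 to 5358) for Trdn, which had 2 UMIs in the 361 Myog cells. When Myh3, an embryonic myosin gene, took the place of Acta1 in splitting the cells, the median was 4.90.

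**Figure D1:**
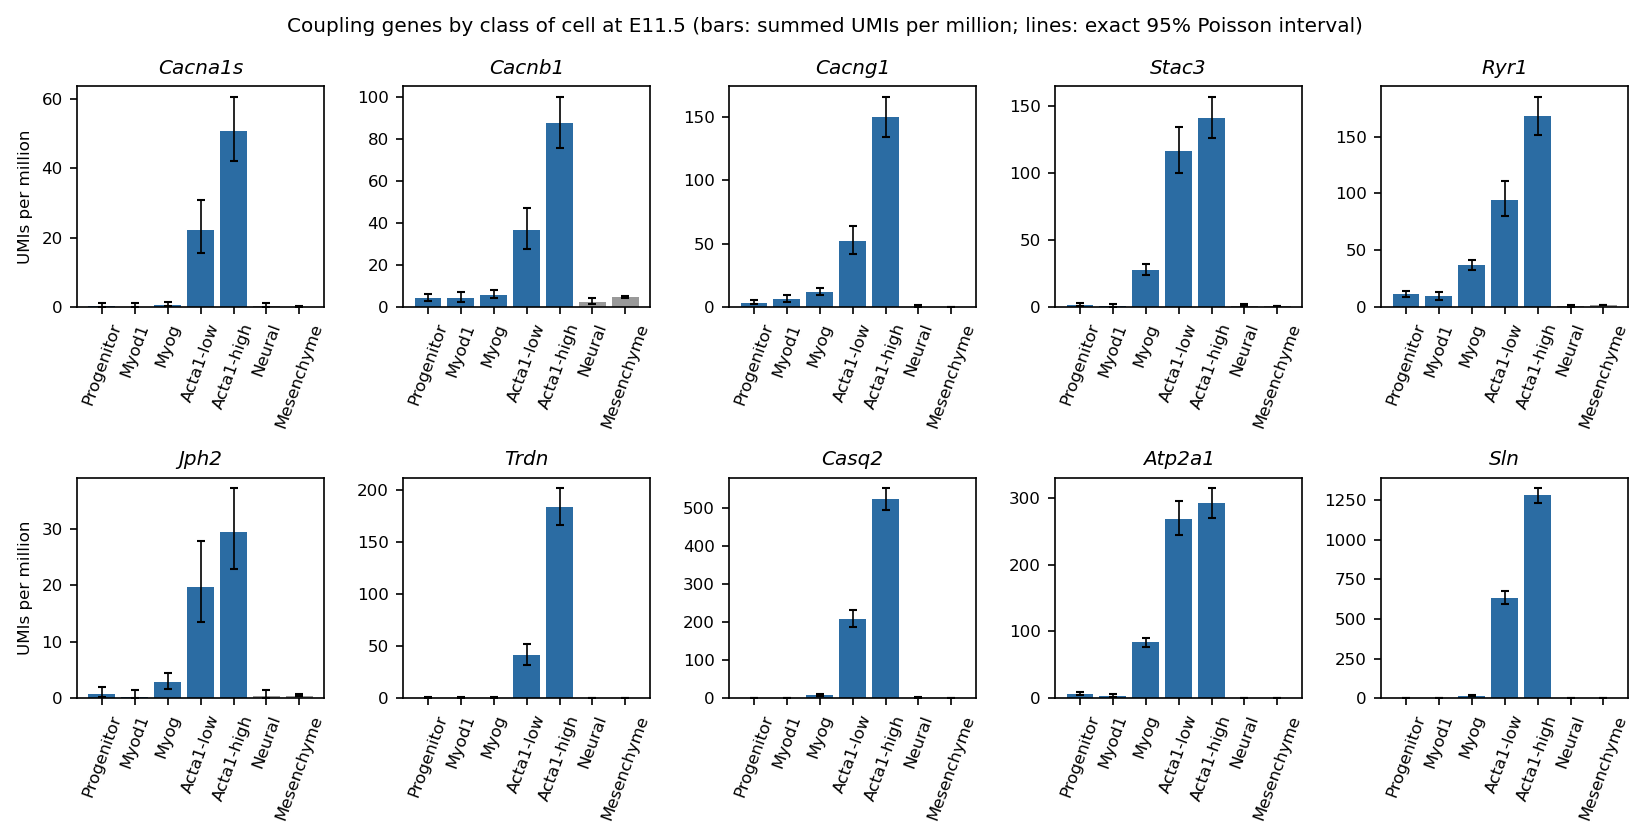
Level of each gene in UMIs per 1000000 UMIs of the class (y axis, a scale of its own per panel, from 0) in 5 classes of muscle cells (blue) and 2 background classes (grey) at E11.5, with exact 95% Poisson intervals. Atp2a1 stood at 83.6 in Myog cells and 269 in Acta1-low cells, whereas Trdn went from 0.28 to 41.4.

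The voltage sensor is built around Cacna1s, the pore subunit of the dihydropyridine receptor that senses voltage (chromosome 1, 136052750 to 136119822). Its level was 0.33 UPM in progenitors, 0 in Myod1 cells, 0.57 in Myog cells, 22.2 in Acta1-low cells and 50.7 in Acta1-high cells. It had 4 UMIs in 361 Myog cells and 2 UMIs in 525 muscle cells without Acta1, and was found in 25% of Acta1-low and 60.2% (50.1% to 69.7%) of Acta1-high cells. Cacnb1, the inner beta subunit that brings the pore to the membrane (chromosome 11, 98001508 to 98023034), stood at 4.16, 4.37 and 5.84 UPM in progenitor, Myod1 and Myog cells, at 36.4 in Acta1-low and at 87.4 in Acta1-high cells. The first 3 of these levels have overlapping intervals. Cacng1, the gamma subunit, which lowers the current of the channel (chromosome 11, 107703218 to 107716522), was 3.33 UPM in progenitors, 6.01 in Myod1 cells, 11.8 in Myog cells, 51.9 in Acta1-low cells and 150 in Acta1-high cells. It was 1.96-fold (1.22 to 3.30) higher in Myog than in Myod1 cells and 2.89-fold (2.27 to 3.71) higher in Acta1-high than in Acta1-low cells.

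Stac3, the adaptor protein without which the sensor does not couple to the release channel (chromosome 10, 127501686 to 127508823), had 9 UMIs in progenitors and 2 in Myod1 cells. Its levels were 27.5 UPM (23.7 to 31.6) in Myog cells, 116 in Acta1-low cells and 141 in Acta1-high cells. The step from Myod1 to Myog cells was 50.2-fold (13.7 to 418), and the step from Acta1-low to Acta1-high only 1.21-fold (1.01 to 1.46). Stac3 was therefore near its highest level when Acta1 was still low, unlike the subunits of the sensor it serves. Ryr1, the release channel itself (chromosome 7, 29003344 to 29125179), was found in more progenitors than any other of the 10. It stood at 11.3 UPM (8.79 to 14.3) there, at 9.30 in Myod1 cells, at 36.4 (32.1 to 41.2) in Myog cells, at 94.5 in Acta1-low cells and at 168 (152 to 185) in Acta1-high cells. The first 2 levels overlap in their intervals, and each later class lies above the one before it.

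Jph2, a junctophilin that holds the surface membrane and the store membrane close together (chromosome 2, 163336242 to 163397993), was sparse throughout. It had 20 UMIs in Myog cells (2.85 UPM), 32 in Acta1-low cells (19.8 UPM) and 69 in Acta1-high cells (29.4 UPM), and the last 2 levels cannot be told apart (ratio 1.49, 0.97 to 2.34). Trdn encodes triadin, which ties calsequestrin to the release channel inside the store (chromosome 10, 33080554 to 33476709). Its level was at most 0.28 UPM up to and including Myog cells, 41.4 UPM (32.1 to 52.5) in Acta1-low cells and 184 (167 to 202) in Acta1-high cells. Trdn had the largest ratio of the 10 between Acta1-high and Acta1-low cells, 4.45-fold (3.44 to 5.85).

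Casq2, a calsequestrin, the protein that binds calcium within the store (chromosome 3, 102086415 to 102146514), was at 0.17 UPM in progenitors, 0.27 in Myod1 cells, 8.11 in Myog cells, 208 in Acta1-low cells and 521 in Acta1-high cells. The UMIs in the Myog class came from 23 of 361 cells. Atp2a1 encodes SERCA1, the fast-muscle calcium pump of the store (chromosome 7, 126445858 to 126463108). Its level was 6.99 UPM (5.04 to 9.45) in progenitors, 3.28 (1.70 to 5.73) in Myod1 cells, 83.6 (76.9 to 90.6) in Myog cells, 269 (244 to 295) in Acta1-low cells and 292 (270 to 314) in Acta1-high cells. It was 25.5-fold (14.5 to 49.6) higher in Myog than in Myod1 cells, and its levels in Acta1-low and Acta1-high cells cannot be told apart (ratio 1.09, 0.96 to 1.23). Sln, sarcolipin, a small membrane protein that slows that pump (chromosome 9, 53850164 to 53854560), stood at 0.33 UPM in progenitors, 1.09 in Myod1 cells, 16.1 in Myog cells, 634 in Acta1-low cells and 1279 in Acta1-high cells. The pump was thus present in Myog cells at 28.7% (25.6% to 32.0%) of its Acta1-high level, and its inhibitor at 1.26% (1.03% to 1.52%) of its own.

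Set against its own level in Acta1-high cells, each gene can be placed by how much of it was already present in Myog cells. Atp2a1 (28.7%), Ryr1 (21.7%) and Stac3 (19.5%) were the 3 of 10 that reached at least 10%, while 97.7% of all genes tested did. Jph2 was at 9.68% (5.57% to 16.1%) and Cacng1 at 7.90% (6.14% to 10.1%), both with intervals that include 10%, and Cacnb1 was at 6.68% (4.65% to 9.38%). The remaining 4 were Casq2 at 1.56% (1.17% to 2.03%), Sln at 1.26% (1.03% to 1.52%), Cacna1s at 1.12% (0.30% to 2.95%) and Trdn at 0.155% (0.019% to 0.56%). The intervals of Casq2, Sln and Cacna1s overlap, as do those of Cacna1s and Trdn, with 4 and 2 UMIs in Myog cells. The release channel, the adaptor and the pump were thus nearer to their Acta1-high level in Myog cells than were the pore of the voltage sensor, the store proteins triadin and calsequestrin, and sarcolipin. Between Myod1 and Myog cells, Atp2a1 (25.5-fold, 14.5 to 49.6), Stac3 (50.2-fold, 13.7 to 418), Casq2 (29.7-fold, 5.12 to 1193) and Sln (14.7-fold, 5.59 to 54.9) were higher, with 12, 2, 1 and 4 UMIs in Myod1 cells. Jph2, with 20 UMIs against 1, had a ratio between 1.67 and 432. Ryr1 was 3.92-fold (2.73 to 5.79) higher there, Cacng1 1.96-fold and Cacnb1 1.33-fold (0.73 to 2.55). The Myog class admits cells with some Acta1, under 5 UMIs. The 525 muscle cells without Acta1 held 18 Casq2 and 23 Sln UMIs, against 57 and 113 in Myog cells. For Atp2a1 and Stac3 they held 411 and 124, against 587 and 193. Most Casq2 and Sln UMIs of the Myog class thus came from cells with Acta1.

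To follow the order more finely, E11.5 cells with Myod1 or Myog UMIs and at least 5 Acta1, 3 Myog or 2 Myod1 UMIs were sorted into 7 bins by Acta1 UMIs per 10000 UMIs of the cell, from 525 cells without Acta1 to 47 cells above 100. The onset of a gene was taken as the Acta1 value at which its level first reached 50% of that in the last bin. The range given with each onset starts where the upper limits of the bin levels first reached this 50% level. It ends where the lower limits did. The 50% level was held fixed, so counting error in the last bin is left out (Jph2 had 25 UMIs there, 24.3 to 55.4 UPM). Ranges that lie apart are therefore not a test of order. Atp2a1 reached it at 1.05 Acta1 UMIs per 10000 (0.81 to 1.47), Stac3 at 1.14 (0.57 to 2.16) and Ryr1 at 2.28 (1.08 to 3.76). These 3 ranges overlap, so the order of the 3 genes among themselves is not resolved. Jph2 followed at 6.01, with a range from 1.24 to 18.1 that spans most of the others. Sln came at 8.44 (7.41 to 9.61), Casq2 at 10.8 (8.57 to 13.7) and Cacng1 at 13.1 (9.30 to 19.5). Cacna1s was at 13.8 (5.33 to 39.0) and Cacnb1 at 18.4 (4.08 to 28.0). Trdn was last, at 39.2 (25.1 to 55.3). Its range lies above those of Atp2a1, Stac3, Ryr1, Jph2, Sln, Casq2 and Cacng1 but overlaps those of Cacna1s and Cacnb1.

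**Figure D2:**
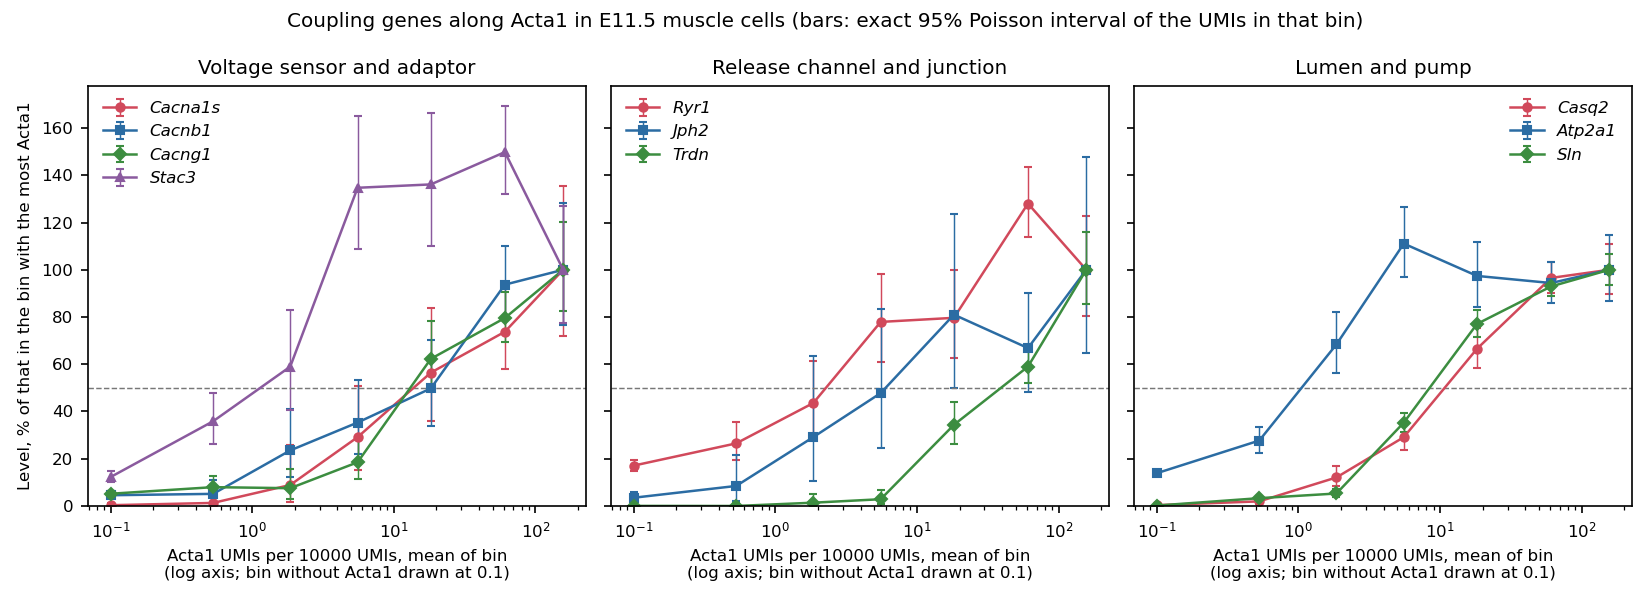
Level of each gene as a percentage of its level in the bin with the most Acta1 (y axis) against the mean Acta1 of the bin, in UMIs per 10000 UMIs (x axis, log scale; the bin without Acta1 is drawn at 0.1), over 7 bins of E11.5 muscle cells with exact 95% Poisson intervals; the dashed line marks 50%. Atp2a1 and Stac3 crossed it at 1.05 and 1.14, and Trdn at 39.2.

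The order depended on the axis, on depth and on the level taken as onset. At 10% of the last-bin level, Cacnb1 came at 0.74 (0.36 to 1.43), before Sln at 2.20 (2.04 to 2.37). Casq2 was then at 1.43 (0.98 to 2.08), with a range that overlaps that of Sln. Ryr1, Atp2a1 and Stac3 were past 10% in the bin without Acta1, and Trdn was last at 7.27 (6.17 to 8.49). At 50%, Atp2a1 was first and Stac3 second when cells were ordered by Myh3 or by Mylpf, other sarcomere genes. Ryr1, however, reached 50% at 12.2 Myh3 UMIs per 10000 (7.86 to 17.3). Its range lies apart from those of Atp2a1 at 1.52 (1.16 to 2.35) and Stac3 at 3.75 (1.97 to 6.45). It overlaps those of Sln (13.4) and Casq2 (14.5). Trdn was last along Mylpf and ninth along Myh3, where Cacna1s was last. With every cell thinned to 5000 UMIs, Stac3 came first at 0.26 Acta1 UMIs per 10000 (0.15 to 3.10). Cacnb1 was second at 1.14 with a range from 0.71 to 32.4, and Atp2a1 was at 1.17 (0.68 to 2.44). Trdn remained last at 31.0 (12.9 to 74.6). The place of Cacnb1 is thus not resolved by these counts. The 0.26 of Stac3 lies between the bin without Acta1, set at 0.1, and the next bin, so it depends on that setting. Atp2a1 was level from the bin of 3 to 10 Acta1 UMIs per 10000 onward, with 332 UPM (290 to 378) there and 299 (259 to 343) above 100. Stac3 stood at 153 UPM (135 to 173) in the bin of 30 to 100 and at 102 (79.3 to 129) in the last bin, and Ryr1 at 177 (157 to 198) and 138 (111 to 169). For Stac3 these intervals lie apart, so its highest level was not in the cells with the most Acta1. Set against 50% of the highest bin in place of the last, the onsets of Stac3 and Ryr1 would lie later. Such onsets were not calculated. The last bin, against which all onsets are set, also had lower shares of cells. Atp2a1 was found in 66.0% of its 47 cells against 83.3% in the bin before, with medians of 14858 and 18098 UMIs. The part of depth or cell quality in this was not tested. Trdn had 1 UMI in the 525 cells without Acta1, 5 UMIs in the 35 cells of the bin of 3 to 10, and 62 UMIs in the 42 cells of the next bin. Sln, by contrast, had 318 UMIs in those 35 cells.

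Shares of cells give the same classes from another side. In Acta1-high cells, Atp2a1 and Sln were each found in 99.0%, Casq2 in 98.1%, Ryr1 in 96.1%, Cacng1 and Stac3 each in 88.3%, Trdn in 86.4%, Cacnb1 in 84.5%, Cacna1s in 60.2% and Jph2 in 44.7%. After every cell was thinned to 5000 UMIs, these shares were 78.2%, 92.1%, 93.1%, 59.4%, 41.6%, 53.5%, 53.5%, 33.7%, 27.7% and 20.8%, in the same order, with 101 of the 103 cells deep enough. Each share was lower after thinning, most of all for Cacnb1 and Cacng1. Atp2a1 was found in 54.0% (48.7% to 59.2%) of Myog cells, and in 28.1% of the thinned ones. In neural cells, which should lack it, it was found in 0.304% of 329 cells, with a median of 12881 UMIs against 17727 in Myog cells.

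The number of the 10 genes found in a cell had a median of 0 in progenitor and Myod1 cells, 2 in Myog cells, 4 in Acta1-low cells and 9 in Acta1-high cells. Thinned to 5000 UMIs, the medians were 0 in Myog cells, 3 in Acta1-low cells and 6 in Acta1-high cells. At least 5 of the 10 were found in 102 of the 103 Acta1-high cells, and all 10 in 20 of them. Among Acta1-low cells, 56 of 116 had at least 5, and among Myog cells 20 of 361. The Acta1-low class was also the most mixed in depth, with 36 of its 116 cells under 5000 UMIs against 12 of 361 Myog cells and 2 of 103 Acta1-high cells.

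**Figure D3:**
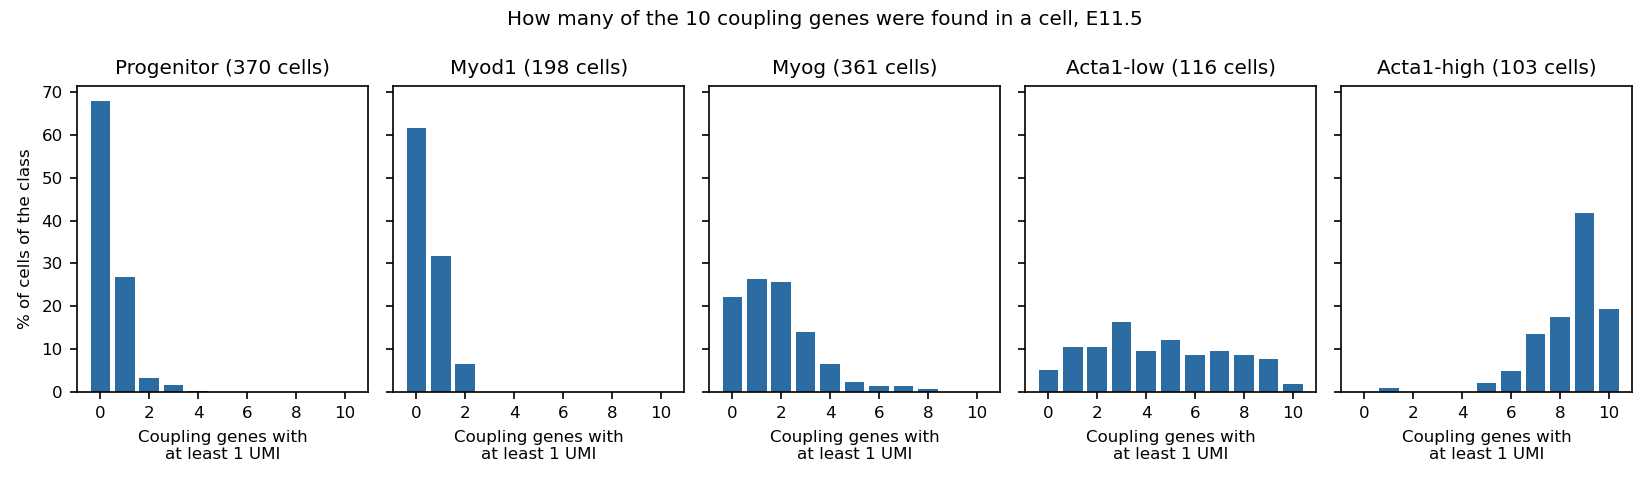
Percentage of the cells of a class (y axis) by how many of the 10 genes had at least 1 UMI in the cell (x axis), for 5 classes of E11.5 muscle cells, without thinning. Of the Acta1-high cells, 102 of 103 had at least 5 genes, and of the progenitors 68.1% had none.

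Within the Acta1-low class the genes could be followed cell by cell. Of the 29 cells with Cacna1s, all 29 also had Atp2a1, and of the 78 cells with Atp2a1, 29 (37.2%) had Cacna1s. Of the 29 cells with Trdn, 25 had Atp2a1 and 28 had Sln, while 32.1% of the cells with Atp2a1 and 31.8% of the 88 cells with Sln had Trdn. Cells with Cacna1s or Trdn but no Atp2a1 were thus 4 in all. Such counts follow the abundance of a transcript as well as its order. In Myog cells, 94 of the 108 cells with Stac3 also had Atp2a1, whereas 108 of the 162 cells with Ryr1 did.

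Some of the 10 were found in cells without Myod1 or Myog UMIs. In E11.5 progenitors Ryr1 had 68 UMIs in 53 of 370 cells, Atp2a1 42 UMIs in 29 cells, Cacnb1 25 UMIs in 25 cells and Cacng1 20 UMIs in 19 cells. RNA freed from muscle cells can add such UMIs, and its level was gauged by Acta1. At the ratio of each gene to Acta1 in the gated muscle cells, the 22 Acta1 UMIs of these progenitors correspond to 0.817 UMIs of Ryr1, 1.68 of Atp2a1, 0.313 of Cacnb1 and 0.527 of Cacng1. The counts of these 4 lie above those values, as do Stac3 (9 against 0.696), Jph2 (5 against 0.119) and Cacna1s (2 against 0.155), whereas Trdn, Casq2 and Sln had 1, 1 and 2 UMIs. The gauge is limited, since the class was defined as having under 5 Acta1 UMIs per cell, which caps the Acta1 count, and since it takes free RNA to have the mix of all gated muscle cells, which was not tested. With Mylpf, on which no class was gated, in the place of Acta1, the value for Ryr1 was 1.18 and for Atp2a1 2.42. Relative to mesenchyme, progenitors were 7.52-fold (5.41 to 10.4) higher in Ryr1, 141-fold (45 to 711) in Atp2a1 and 40.3-fold (14.7 to 137) in Cacng1, and did not differ beyond counting error in Cacnb1 (0.92-fold, 0.58 to 1.39).

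Myod1 cells were not higher than progenitors in any of the 10 beyond counting error. Atp2a1 was lower in them, 0.47-fold (0.22 to 0.91), but 7 of its 42 UMIs in progenitors came from 1 cell. Without that cell, progenitors stood at 5.85 UPM (4.07 to 8.13). This interval overlaps that of Myod1 cells, at 3.28 UPM (1.70 to 5.73). Progenitors were next divided by Myf5, the first muscle determination factor of the somite, a split chosen after the levels had been seen. The 211 progenitors with Myf5 had 5.18-fold (2.03 to 16.9) more Atp2a1 and 1.95-fold (1.12 to 3.54) more Ryr1 than the 159 without, and held all 9 Stac3 UMIs. The cell with 7 Atp2a1 UMIs was kept in this split. For Cacnb1 the ratio was 0.89 (0.38 to 2.17).

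The Myog class was likewise divided, after the data had been seen, by the cell cycle genes Mki67, Top2a and Cdk1. The 97 cells without a UMI of these had higher levels than the 183 cells with at least 5 of them, 7.74-fold (4.82 to 12.7) for Sln, 5.81-fold (3.12 to 11.1) for Casq2, 5.59-fold (3.98 to 7.92) for Stac3, 5.26-fold (4.35 to 6.37) for Atp2a1, 4.44-fold for Cacnb1 and 2.08-fold (1.54 to 2.78) for Ryr1. Atp2a1 was nevertheless found in 41.5% of the cells with cycle transcripts, at 41.5 UPM (35.8 to 47.9). Myog itself was 4372 UPM in the cells without and 1275 in those with cycle transcripts. The cells without cycle transcripts had a median of 12867 UMIs and the others 23463, and the part of depth in the split was not tested. In the whole Myog class, the 3 cycle genes summed to 784 UPM, against 364 in Acta1-low and 81.4 in Acta1-high cells.

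At E9.5, 9 cells passed the Acta1 gates. Atp2a1 was found in 6 of the 9 and Sln in 7, Ryr1 in 5 and Stac3 in 3, whereas Trdn, Casq2, Cacna1s and Jph2 were each found in 1 cell and Cacnb1 in none. That 1 cell was the same for the 4 genes. It had 211 Acta1 UMIs, the most of the 9, and held 9 of the 10 genes, with 36 UMIs of Sln, 6 of Atp2a1 and 1 to 3 of the others. In the 26 Myog cells of E9.5, Atp2a1 stood at 30.9 UPM (17 UMIs in 7 cells), Ryr1 at 10.9 (6 UMIs) and Cacnb1 at 7.28 (4 UMIs). Cacna1s, Cacng1, Trdn, Casq2 and Jph2 had 0 UMIs, with an upper interval limit of 6.71 UPM each. Sln stood at 41.9 UPM there, above the 16.1 of E11.5 Myog cells, but 20 of its 23 UMIs came from 1 cell, and without that cell it was at 5.72 (1.18 to 16.7). With so few cells, no order of onset was drawn for E9.5.

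Progenitors were compared between the stages, each stage being 1 pool of embryos. Ryr1 was at 11.3 UPM at E11.5 and 1.67 at E9.5, a ratio of 6.77 (4.35 to 10.8). Atp2a1 was 7.38-fold (4.11 to 13.8), Cacnb1 7.47-fold (3.46 to 17.4) and Stac3 4.48-fold (1.42 to 15.3) higher at E11.5, and Cacng1 had 20 UMIs against 0. Jph2, with 5 and 10 UMIs, was at 1.49-fold (0.40 to 4.80). Ryr1, Atp2a1, Cacnb1 and Stac3 stood at 1.67, 0.95, 0.56 and 0.33 UPM in E9.5 progenitors. In E9.5 mesenchyme they stood at 1.19, 0.57, 1.01 and 0.30 UPM, with overlapping intervals. Mesenchyme at E11.5 was also 4.47-fold (3.21 to 6.36) higher in Cacnb1. It was lower in Atp2a1 (0.087-fold, 0.017 to 0.29) and did not differ beyond counting error in Ryr1 (1.27-fold, 0.88 to 1.84). In Myog cells, Ryr1 was 3.34-fold (1.51 to 9.18) and Atp2a1 2.70-fold (1.67 to 4.67) higher at E11.5, with Atp2a1 at E9.5 at 17.5 UPM (8.02 to 33.3) in place of 30.9 without 1 cell that held 8 of its 17 UMIs. Cacnb1 did not differ there beyond counting error (0.80-fold, 0.29 to 3.08). Stage and library cannot be told apart in these ratios.

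Outside muscle most of the 10 were nearly absent at E11.5. The median log2 ratio of Acta1-high over neural cells was 8.42. It rests on few UMIs, since Ryr1, Cacna1s, Cacng1, Trdn, Atp2a1, Sln and Jph2 had at most 2 each in neural cells. The interval for Cacna1s, with 1 UMI there, ran from 45.3-fold to 10256-fold. For Trdn, with 432 UMIs against 0, the ratio was 312-fold with the 0 set to 3 counts over the class. Its exact lower 95% limit was 252-fold. Of all UMIs of a gene in kept cells, the 778 gated Myod1, Myog and Acta1 cells, 8.11% of the cells, held 98.7% for Sln, 98.6% for Casq2, 97.0% for Cacna1s, 96.2% for Trdn, 94.6% for Atp2a1, 90.2% for Cacng1, 89.5% for Stac3, 72.9% for Ryr1, 68.9% for Jph2 and 41.3% for Cacnb1. Cacnb1 was therefore the least bound to muscle. It stood at 4.53 UPM (4.01 to 5.10) in 4632 mesenchyme cells, 9.61 (6.80 to 13.2) in 351 neurons and 5.40 (3.42 to 8.10) in 268 epithelial cells. In Myog cells it stood at 5.84 UPM (4.19 to 7.92). Each of the other 3 intervals overlaps this one, but overlap does not show that the levels are equal. Ratios of these classes to Myog cells were not calculated. Among 91 white blood cells, 89 had none of the 10 genes.

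Gauged in the same way, with the same limits, the 102 Acta1 UMIs of mesenchyme correspond to 1.45 UMIs of Cacnb1, and 274 were found. Ryr1 had 91 against 3.79, Stac3 35 against 3.23 and Jph2 30 against 0.552, and the other 6 were within counting error of their values. With Mylpf in the place of Acta1, the values were 2.41 for Cacnb1 and 6.29 for Ryr1, but Casq2 (4 against 12.2), Atp2a1 (3 against 12.9) and Sln (12 against 31.2) were below theirs, so the mix of the gated muscle cells did not describe these counts. The part of free RNA in them was not tested further. Casq2 had 7 UMIs in neural cells (0.503 by Acta1) and 6 UMIs in 6 of 98 neural crest cells (0.431 by Acta1), at 3.07 UPM (1.13 to 6.68). In the 2192 neural cells of E9.5, Casq2 had 31 UMIs. Endothelial cells, 66 in all, had 1 Ryr1 UMI and none of the other 9 genes. Across stages, Cacnb1 in mesenchyme was 4.47-fold (3.21 to 6.36) higher at E11.5, and Atp2a1 was lower, with 3 UMIs against 23 (0.087-fold, 0.017 to 0.29).

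Close relatives of the 10 genes ranged from absent to well counted in the Myog and Acta1-high cells. Atp2a2, the pump of slow muscle, heart and many other cells, was 93.1 UPM in Myog and 240 in Acta1-high cells (log2 ratio 1.37). Casq1, the calsequestrin of fast muscle, was at 0.71 and 43.5 UPM (log2 ratio 5.93), and Jph1, the skeletal junctophilin, at 7.40 and 24.7 (log2 ratio 1.74). Ryr3 had 15 and 12 UMIs, Ryr2 4 and 3, Cacna1c 11 and 5 and Cacna1d 3 and 2. Of the other beta subunits, Cacnb3 was lower in Acta1-high cells (13.0 and 5.54 UPM), and Cacnb2 and Cacnb4 had at most 6 UMIs in a class. Stac had 14 UMIs in Myog and 0 in Acta1-high cells, Stac2 and Pln, the heart inhibitor of the pump, had 0 in both, and Jph3, Jph4 and Atp2a3 at most 11.

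Of 74 other genes of calcium handling and membrane excitability, 73 were in the table and 49 had at least 20 UMIs in Acta1-high and Myog cells. Of these 49, 26 were at least 2-fold higher in Acta1-high cells, 4 at least 2-fold lower and 19 in between, and 14 were at least 4-fold higher, with a median log2 ratio of 1.14. Over all 10974 genes tested, 12.1% were at least 2-fold higher, 16.8% at least 2-fold lower and 5.05% at least 4-fold higher. Their median log2 ratio was -0.19. The highest were Cav3, the caveolin of muscle membrane and forming tubules, at 6.60, Casq1 at 5.93, Srl, sarcalumenin of the store, at 4.65, Cacng6, a further gamma subunit, at 4.44 and Sypl2, mitsugumin 29 of the triad, at 4.07. Cav3, Casq1 and Sypl2, with 10, 5 and 10 UMIs in Myog cells, reached 20 UMIs only through the class in which they were higher. The same holds for others of the 26, among them Cacna1b and Dysf, with 6 and 8 UMIs in Myog cells. Junction and tubule genes were the group with the most members at least 2-fold higher, 10 of the 12 with enough UMIs, among them Bin1, which shapes tubules, at 160 and 701 UPM. Among the lowest were Cacng7 at -1.36, Cacnb3 at -1.23, Fkbp1b, a protein that binds release channels, at 0.499-fold and Atp2b4, a calcium pump of the surface membrane, at a log2 ratio of -0.82. For Cacng7 and Fkbp1b, with 3 UMIs each in Acta1-high cells, the intervals include 0.

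**Figure D4:**
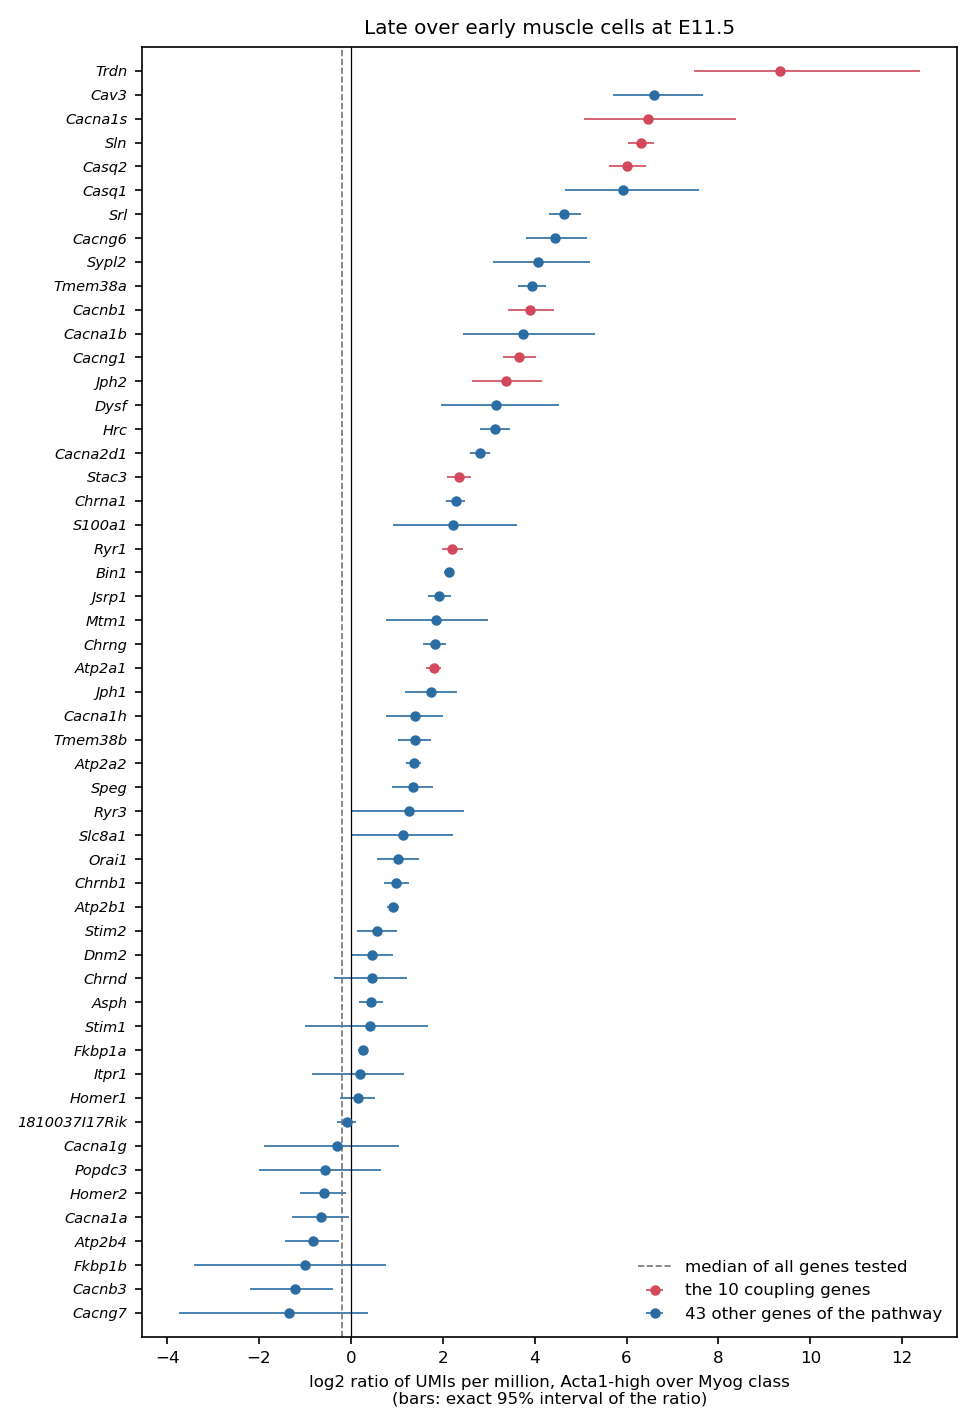
Log2 ratio of UMIs per 1000000 UMIs, Acta1-high over Myog class at E11.5 (x axis), for the 10 genes (red) and 43 other genes of calcium handling at the membranes and the store and of excitability (blue), one gene per row, with exact 95% intervals; the dashed line is the median of all genes tested, -0.19. The 10 genes range from 1.80 (Atp2a1) to 9.34 (Trdn), and 3 of the others drawn are at least 2-fold lower.

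The genes whose levels ran most alike were sought over 10 points, the 7 Acta1 bins and the neural, endothelial and mesenchyme classes of E11.5, among 9645 genes. The measure was Pearson's r of log2(UPM + 1), as a description, since all points share 1 library and all such genes are low in the 3 background classes. Atp2a1 ran closest to Tmem8c (r = 0.999), the gene now called Mymk, which encodes the fusogen myomaker, and to Chrng (r = 0.999), a subunit of the embryonic acetylcholine receptor. Tmem8c stood at 119 UPM in Myog, 409 in Acta1-low and 548 in Acta1-high cells. Ryr1 ran closest to Jsrp1 (r = 0.999), a protein of the triad, and Ppfia4, and Stac3 to Klhl41 and Ablim3. Cacna1s was most like Dhrs7c and Ak1, Cacnb1 like Fabp3 and Sspn, Cacng1 like Myh8 and Tceal7, and Trdn like Ampd1 and Cox8b. Casq2 was most like 2310002L09Rik and Srpk3, Sln like 3300002P13Rik and Smpx, and Jph2 like Srpk3 and Fbxl22. The other r values were between 0.985 and 0.998.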

How the data were processed

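Dissociated somite cells of 3 pooled embryos per stage were captured with the 10x Genomics Chromium system. The authors aligned reads to mm10 with Cell Ranger 3.0.1 (both per the submitters' processing notes). The deposited values are raw UMI counts per gene and barcode, not normalized by the authors and before their filters on cells. Here they were read with Python 3.11.15 (numpy 2.4.6, pandas 2.3.3, scipy 1.17.1; plots with matplotlib 3.10.9). Barcodes outside the limits on genes and mitochondrial UMIs were left out, 270 at E9.5 and 572 at E11.5.

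Background classes held cells without Myod1 or Myog UMIs and with under 5 Acta1 UMIs: neural cells (at least 2 Sox2 UMIs), endothelial cells (at least 3 of Cdh5, Kdr and Pecam1) and mesenchyme (at least 3 of Pax1, Pax9, Prrx1 and Twist1). Neurons, neural crest, white blood and epithelial cells were added after seeing the data. Of the kept cells, 23.5% (E9.5) and 27.2% (E11.5) were in no class. UMIs were summed per class. Ratios have exact 95% intervals of 2 Poisson counts and needed at least 20 UMIs over all genes; a count of 0 was set to 3. The ratio calculation was tested on simulated data for Acta1-high over Myog cells, where the intervals held the true ratio for 96.1% of 10974 genes. Genes capture unequally at the 3′ end, so each is compared with itself. PCR and sampling of cells add error that the intervals do not cover.

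The members and the lists of genes were chosen with earlier results of these data known. Named were the 10 genes, the 5 highest and 5 lowest of the listed pathway genes, all their paralogs, and the 2 most alike genes of each (1 result under this rule is not reported here); others are named in lists or were chosen after their values were seen. Alternatives changed the gates, depth, filters, doublets, averaging and onset. No doublets were removed beyond what the upper limit on genes took out. Scrublet (scanpy 1.11.5) set an automatic threshold that called 538 barcodes at E9.5 but 1 of 10167 at E11.5, so the barcodes with the highest 5% of scores were removed in an alternative at E11.5 instead. No annotated gene of the count table overlaps a member on its strand (GENCODE M21, GRCm38); Rabep2 overlaps Atp2a1 on the other strand.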

Additional observations from a re-analysis of the deposited data

Results flagged for a closer look

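The barcodes removed by the filters on genes and mitochondrial UMIs also held transcripts of the 10 genes. At E9.5 they held 93 UMIs of them in 40 of 270 barcodes, which is 9.56 UPM (7.72 to 11.7). At E11.5 they held 1147 UMIs in 87 of 572 barcodes, 166 UPM (157 to 176). They were looked at because they lie outside the cells compared in the report and exceed the limit that a count of 0 allows. When the cap on genes and the mitochondrial filter were left out, the Acta1-high class held 113 cells in place of 103. The Myog class then held 379 in place of 361, and mesenchyme 4661 in place of 4632. The filters thus also took out barcodes that pass the muscle gates. Whether these barcodes are single intact muscle cells was not tested. The median log2 ratio of Acta1-high over Myog cells was then 3.78, as with the filters.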

How the results depend on the processing

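No paired analysis was possible because each stage is a single library. The median log2 ratio of Acta1-high over Myog cells was between 3.53 and 4.14 under 10 alternatives and moved to 4.90 when Myh3 split the late cells. The same median over neural cells was 8.42 and ranged from 7.04 (cells thinned) to 8.59 (mean over cells). The other summary values stayed within 1.5 times or within their interval: 7 to 10 members at least 4-fold higher, 3 or 4 with at least 10% of their Acta1-high level in Myog cells, 4 or 5 above the value set by Acta1 or Mylpf in mesenchyme, and 6 to 10 found in at least 50% of Acta1-high cells (6 when thinned). Of the 45 pairs of genes in the onset order, 35 (cells thinned) to 45 kept their order, 36 along Myh3 and 39 along Mylpf. Of 220 values of single members, 175 were the same, 43 moved by more than their interval and 2 changed sign. Both of these concern Atp2a1 in Acta1-high over Acta1-low cells (log2 ratio 0.12), which was -0.12 with Acta1-high cells from 100 UMIs and -0.0027 with the highest 5% of Scrublet scores removed. The Acta1-low class held the largest share of such barcodes, 22 of 116 (19.0%), against 9.19% to 11.6% in the other muscle classes. Removal of the cells that Scrublet called was not run, since it called 1 barcode at E11.5. With 1 library per stage, variation between embryos is unknown, and genes of under 10 UMIs in a class cannot be ordered among themselves.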
